A study of Mus musculus with 57 samples.

Results

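Cells of the mouse prostate cancer line RM1 that had been sorted from bone as dormant, and that carried the line's own transgene, were divided by whether they held any read of Mki67. A dormant-sorted cell was taken as labelled when its normalised value of eCFP, the cerulean fluorescent protein, was at least 100. This left 22 of the 28 dormant cells, out of 57 single cells in the series. Mki67 was above 0 in 12 of them and equal to 0 in 10. The members were thus chosen by their measured eCFP value and divided by their measured Mki67 value. The eCFP threshold fell in a gap, with 349 in the lowest labelled cell and 87.6 in the highest unlabelled one.

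All cells came from RM1 cells carrying eCFP and the luciferase gene Luc2. They had been stained with PKH26, a membrane dye that is diluted at each division. C57BL/6 mice, whose age is not given in the sources used here, then received them by injection into the heart. Single cells were later isolated from bone marrow by flow sorting, PKH26-positive cells as dormant and PKH26-negative cells as proliferating, and each became 1 full-length RNA-seq library. The 22 labelled dormant cells came from 4 mice: 4 cells of mouse 369 (day 17 after injection), 3 of mouse 452 (day 16), 4 of mouse 1184 (day 15) and 11 of mouse 1185 (day 14). Mouse 369 gave 4 Mki67-positive cells and no negative one, mouse 452 gave 1 positive and 2 negative cells, mouse 1184 gave 2 and 2, and mouse 1185 gave 5 and 6. Only 3 mice therefore held both kinds of cell. All the dormant cells share 1 tumour line, 1 route of injection and 1 dye gate. The protocols place them in 2 library batches, but which cell belonged to which is not given in the sources used here.

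Mki67 encodes Ki-67, a large protein that coats mitotic chromosomes and is made in cycling cells, and its staining is the usual histological measure of growth in tumours. Its transcript accumulates from S phase to mitosis together with Top2a, the topoisomerase that untangles sister chromatids, and with the cyclins, kinases and kinesins of mitosis. Many of these genes carry CCAAT boxes, which bind NF-Y, and a cell cycle homology region (CHR), which binds the DREAM complex in resting cells and B-MYB and FOXM1 complexes in G2. PKH26 reports past divisions, whereas Mki67 RNA reports the state of the cell when it was lysed.

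The promoters of Mki67 and of 4 mitosis genes described below are shown as examples of these words, not as a sample of the list. Each is the 250 bases before the RefSeq start on the GRCm38.p6 assembly, 5′ to 3′ on the gene's strand. Capitals mark CCAAT and the CHR-like words TTTGAA and TTCGAA, on either strand, so that ATTGG and TTCAAA are the same words read on the other strand.
Mki67 (chr7:135716380-135716629, minus strand): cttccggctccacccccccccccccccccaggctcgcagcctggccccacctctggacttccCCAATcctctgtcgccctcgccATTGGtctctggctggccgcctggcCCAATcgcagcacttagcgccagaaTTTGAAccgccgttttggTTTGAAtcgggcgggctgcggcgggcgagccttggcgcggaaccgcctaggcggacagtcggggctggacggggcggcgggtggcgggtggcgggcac
Top2a (chr11:99024190-99024439, minus strand): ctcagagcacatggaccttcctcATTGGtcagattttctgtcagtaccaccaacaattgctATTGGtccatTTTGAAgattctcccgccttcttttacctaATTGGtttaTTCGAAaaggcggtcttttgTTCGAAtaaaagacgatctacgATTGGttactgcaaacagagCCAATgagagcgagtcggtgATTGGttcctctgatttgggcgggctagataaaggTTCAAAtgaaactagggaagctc
Ccnb1 (chr13:100786487-100786736, minus strand): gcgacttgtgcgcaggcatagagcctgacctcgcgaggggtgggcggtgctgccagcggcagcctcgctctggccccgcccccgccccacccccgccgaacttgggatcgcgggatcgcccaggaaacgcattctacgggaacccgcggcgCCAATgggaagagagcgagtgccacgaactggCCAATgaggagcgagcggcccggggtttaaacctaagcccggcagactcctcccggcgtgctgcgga
Cdk1 (chr10:69352913-69353162, minus strand): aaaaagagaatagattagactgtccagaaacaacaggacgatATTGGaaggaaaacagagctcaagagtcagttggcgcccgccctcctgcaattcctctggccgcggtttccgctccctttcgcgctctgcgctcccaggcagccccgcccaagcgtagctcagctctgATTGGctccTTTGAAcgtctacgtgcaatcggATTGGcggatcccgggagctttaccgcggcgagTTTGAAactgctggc
Ect2 (chr3:27153879-27154128, minus strand): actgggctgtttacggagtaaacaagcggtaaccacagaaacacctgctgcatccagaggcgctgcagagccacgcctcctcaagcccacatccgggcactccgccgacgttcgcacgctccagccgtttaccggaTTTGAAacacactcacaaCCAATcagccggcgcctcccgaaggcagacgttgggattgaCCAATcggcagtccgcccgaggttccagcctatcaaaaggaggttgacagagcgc
The Mki67 window held 3 CCAAT and 2 TTTGAA words, the latter 116 and 98 bases before the start. Top2a held 6 CCAAT and 4 CHR-like words, Cdk1 3 and 2, and Ect2 2 and 1, while Ccnb1 held 2 CCAAT and none of the CHR-like words searched. Some windows not printed held fewer: Plk1 and Cenpe had 1 CCAAT each and no CHR-like word, and Kif2c had 1 TTTGAA and no CCAAT. The Kif2c window did not match the transcript start on either strand, so it may not be that gene's promoter. Of 32851 such windows in the RefSeq table, 33.8% held CCAAT, 16.0% held TTTGAA and 1.34% held TTCGAA. Among 51 genes of the G2/M and mitosis list with a window, 35.3% held both a CCAAT and a CHR-like word, against 7.0% of all 27025 genes with one. These are matches of letters in a fixed window and not binding sites.

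The labelled cells held between 1310736 and 5306777 recovered reads. Mouse 369, which gave only positive cells, had a mean of 41.5 ERCC spike-ins detected and 1487747 recovered reads per cell. The means per side of the other 3 mice ran from 26.8 to 31 spike-ins and from 2209011 to 3408190 reads. The main test had no mouse block, and the part of this in its differences was not tested. Tumour-line genes were present on both sides: Luc2, Krt8, Krt18 and Vim were above 0 in all 22 cells. The same holds for eCFP, but the rule that chose the cells required it. Leukocyte RNA was present in some libraries. At least 5 of 18 pan-leukocyte genes were above 0 in 4 positive and 4 negative cells, and Ptprc, which encodes the leukocyte antigen CD45, was above 0 in 3 positive cells and 1 negative cell. Monocyte and macrophage genes summed to between 0.000635% and 2.31% of the normalised reads in positive cells and between 0 and 3.56% in negative cells.

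Mki67-positive cells did not have more genes detected than Mki67-negative cells. Between 4828 and 9880 genes were above 0 in the positive cells, with a median of 7757.5, and between 2984 and 9273 in the negative cells, with a median of 7859.5. The ranges overlapped almost fully, and the lowest count belonged to a negative cell of mouse 452. The means per mouse were 7250 ± 1050 genes (SD, n = 4 mice) for positive and 7268 ± 1686 (n = 3) for negative cells. Within the 3 mice with both, the positive mean was lower by a mean of 374 genes (difference −374) and was higher in 1 of 3 mice, with a two-sided exact permutation p of 0.50 and an adjusted p of 1 over 6 cell measures. Swapping sides within 3 mice cannot give a p under 0.25. With each cell thinned to 1310736 reads the difference was −450. Without the negative cell of 2984 genes the difference was −1171, with the positive mean lower in each of 3 mice (exact p = 0.25).

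**Figure D1:**
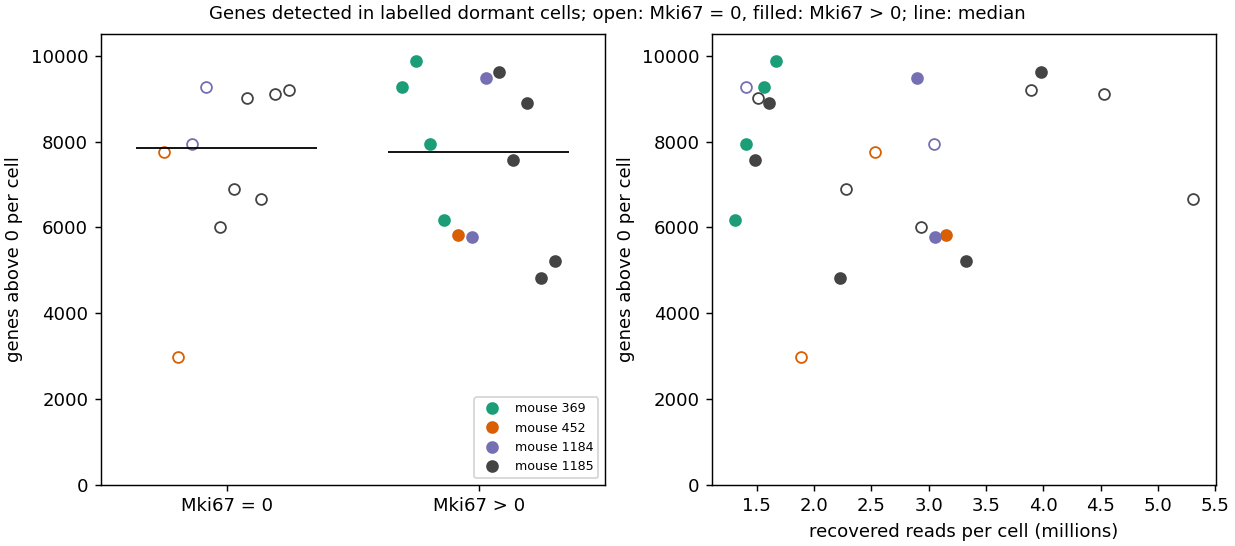
Genes above 0 in each labelled dormant cell by Mki67 side (left, line at the median) and against recovered reads per cell (right), coloured by mouse, with open circles for cells without Mki67 reads. The 12 positive cells span 4828 to 9880 genes and the 10 negative cells 2984 to 9273, and cells with more reads do not sit higher.

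Mki67, which chose the 2 sides, is given as a description. In the positive cells of mouse 369 its normalised values were 32.7, 95.3, 442 and 759. The single positive cell of mouse 452 stood at 0.860, which was 1 recovered read. The positive cells of mouse 1184 had 131 and 261, and those of mouse 1185 had 33.7, 37.6, 259, 330 and 909. Apart from the cell with 1 read, positive cells thus started at 32.7, and no cell lay between 0.860 and that value. Among positive cells the median was 195 and the highest, 909, came from 767 reads.

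The Mki67-positive side held most of the mitotic transcripts, but not every positive cell did. Of 60 G2/M and mitosis genes, between 4 and 60 reached 10 normalised reads in the positive cells, with a median of 53.5, and between 5 and 38 in the negative cells, with a median of 18.5. Expressed as the mean of log2(normalised reads + 1) over the list, 9 of the positive cells lay between 5.56 and 9.52, above each of the 10 negative cells, which lay between 0.861 and 4.64. The other 3 positive cells had list means of 1.79, 1.73 and 0.63, inside or below the negative range. They were the cell of mouse 452 with 1 Mki67 read, the cell of mouse 1184 at 131 and the cell of mouse 1185 at 33.7. Low Mki67 did not mark them out: the positive cell of mouse 369 at 32.7 had 54 of the 60 genes at 10 reads or more, and the cell of mouse 1185 at 37.6 had 53. The cell of mouse 1184 at 131 also had 12 of 18 pan-leukocyte genes above 0 and the highest monocyte and macrophage share of the positive cells, 2.31%, whereas the other 2 had 3 and 1 pan-leukocyte genes. The part of leukocyte RNA in its values was not tested. The 3 cells had 5827, 5769 and 5212 genes detected, while the positive cell with the fewest, 4828, held 50 of the 60.

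**Figure D2:**
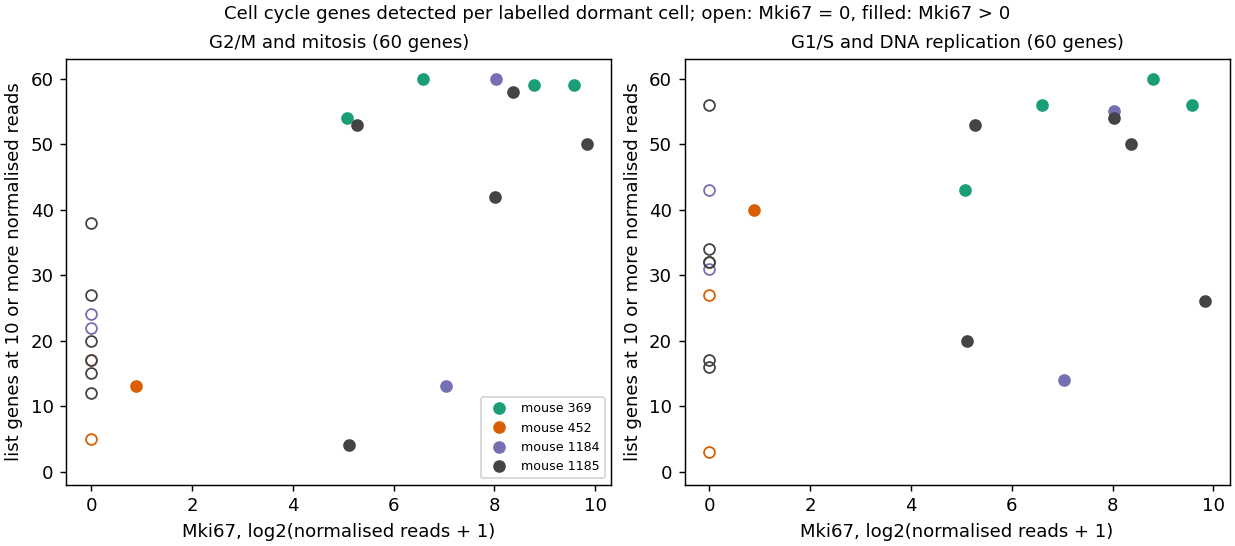
Number of list genes at 10 or more normalised reads in each labelled dormant cell against Mki67 on a log2(normalised reads + 1) scale, for 60 G2/M genes (left) and 60 G1/S genes (right), coloured by mouse, open for Mki67 at 0. On the left 9 positive cells hold 42 to 60 genes, above the negative maximum of 38, and 3 hold 4 to 13; on the right the sides overlap.

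The difference was tested with the mouse as the replicate, on means of log2(normalised reads + 1) per mouse and side (4 positive and 3 negative means). A cell at 0 counts in its mean, and a difference therefore combines the level with the share of cells in which the gene was found. No gene passed the test: limma with Benjamini-Hochberg adjustment called 0.0% of 11079 genes, the smallest adjusted p being 0.9996. Before adjustment 140 genes (1.26%) had a p under 0.05 with the higher mean in positive cells and 167 (1.51%) with the lower. On recovered reads summed per mouse and side, edgeR's quasi-likelihood test called 1 gene higher (0.00903%) and none lower, and DESeq2 called 55 higher (0.496%) and 7 lower (0.0632%). DESeq2 also called genes in simulated data in which none differed, so its calls are given as counts and no statement rests on them alone.

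Within the G2/M and mitosis list all 60 genes were measured, and none passed the test. Means of 58 of the 60 were higher in the positive cells, against 46.9% of all genes tested, and the median difference was 3.30 on the log2(normalised reads + 1) scale, against −0.09 over all genes. At an unadjusted p under 0.05, 25 of the 60 were higher and none was lower. A count by mouse did not set the list apart in the same way: 12 of the 60 were higher in each of the 3 mice, where 6.34% of all genes were, and so were 24 of 79 ribosomal protein genes, 7 of 23 tubulin and high mobility group genes and 8 of 38 respiratory chain genes. The median stayed between 2.08 and 4.39 under every other setting. It was 4.09 without mouse 452, whose single positive cell held 1 Mki67 read, and 2.37 without mouse 369.

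Top2a (chr11:98992943-99024189, ENSMUSG00000020914) was above 0 in 10 of 12 positive and 6 of 10 negative cells. Its positive values ran from 0 through a median of 1214 to 3319 normalised reads, and its negative values from 0 through 3.76 to 469. The sides overlapped, since 2 positive cells had none and 3 negative cells, 1 in each of the 3 mice with both sides, had 146, 199 and 469. The difference was 3.61 (SE 2.14, limma adjusted p = 0.9996), higher in 2 of 3 mice, with −3.82 in mouse 452. Without mouse 452 it was 6.16, and without mouse 369 it was 2.38.

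Ccnb1, cyclin B1, the regulatory subunit that activates CDK1 at entry into mitosis (chr13:100778650-100786570), had a median of 1493 normalised reads in positive cells and of 2.22 in negative cells. Positive values ran from 0.860 to 5005 and negative values from 0 to 168. The difference of 5.65 (SE 2.16) was the largest of the list and was positive in each of the 3 mice, at 0.90, 8.11 and 4.41 in mice 452, 1184 and 1185. The mitotic kinase gene Plk1 was above 0 in 9 positive cells, up to 830, and in no negative cell. It met the filter of 4 cells through positive cells alone. Finding 0 of 10 cells allows a share of up to 30% of cells with a read. This limit takes the cells as independent, although 6 of them came from 1 mouse, and says nothing of cells that express the gene below detection. Cenpe, which encodes a kinetochore kinesin, reached 10 normalised reads in 8 positive cells and in no negative cell, where its highest value was 2.80. Aurkb, the kinase of the chromosomal passenger complex, likewise reached it in 8 and 0 cells.

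Cdk1, the kinase itself, was found on both sides. All 10 negative cells held Cdk1, between 100.3 and 785 normalised reads, and 10 of 12 positive cells did, between 2.11 and 2478 where present. The positive cell with the most Mki67 and Ccnb1 reads, 909 and 5005, had none. The Cdk1 difference was 0.43 (SE 1.18), but 2.20 with edgeR and 2.18 with DESeq2 on recovered reads, −0.45 with the mouse as a block and −0.27 without mouse 452, so that its direction depended on the setting. The positive mean was higher in mouse 452 and lower in mice 1184 and 1185. Bub3, a spindle checkpoint component, and Pttg1, which encodes securin, were the 2 list members with lower positive means, at −0.73 and −0.67. A negative cell could therefore hold Cdk1 and Bub3 RNA at 10 reads or more without a Plk1 read, and all 10 did.

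**Figure D3:**
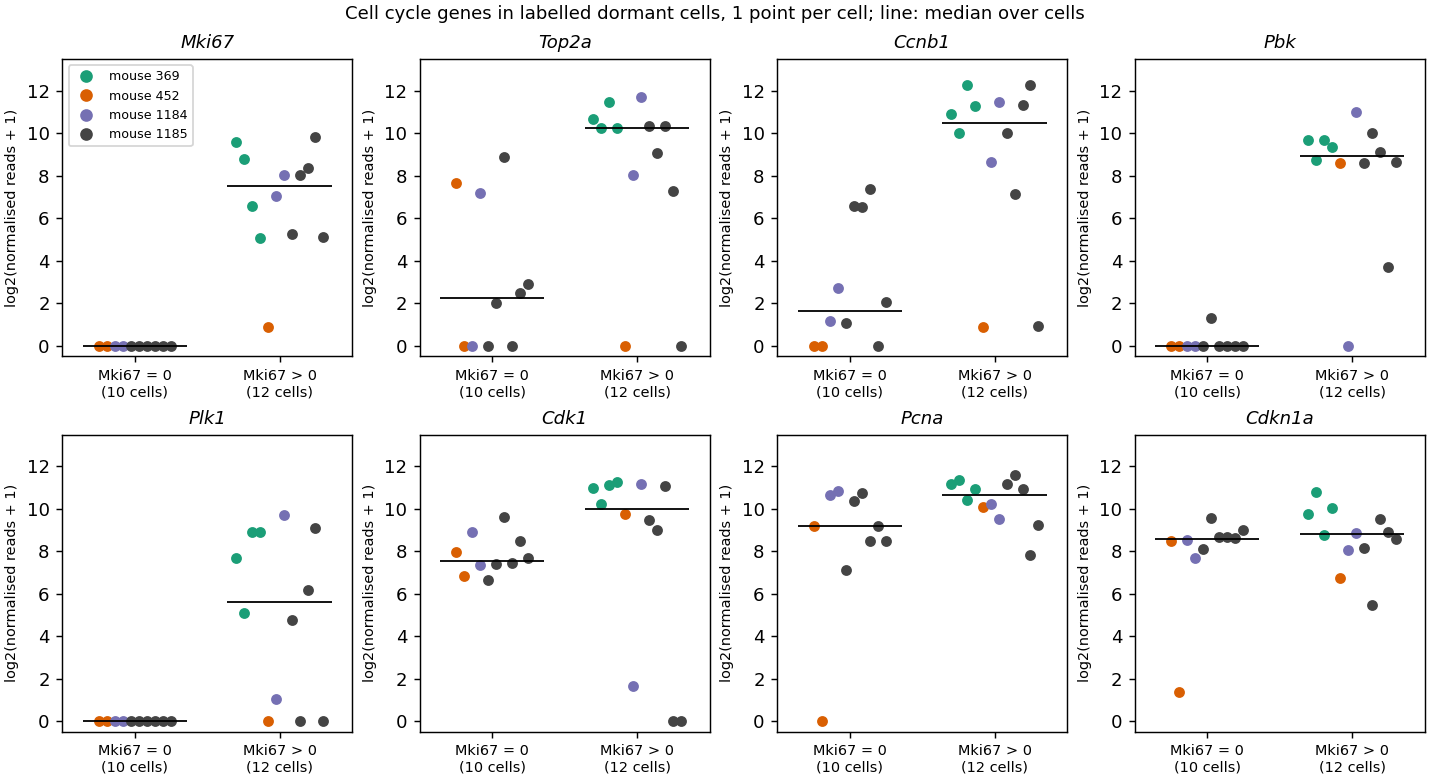
Log2(normalised reads + 1) of 8 cell cycle genes in each labelled dormant cell, by Mki67 side and coloured by mouse, with a line at the median over cells. Plk1 is at 0 in all 10 negative cells and Pbk above 0 in 1 of them, while Cdk1, Pcna and Cdkn1a overlap between the sides.

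The gene with the smallest p was Pbk, which encodes a mitotic serine/threonine kinase also called TOPK (chr14:65805837-65817822, ENSMUSG00000022033). It was above 0 in 11 of 12 positive cells, with a median of 492 and a highest value of 2050 normalised reads. In the negative cells it was above 0 in 1 of 10, at 1.48. Only a positive cell of mouse 1184 had none, and the other positive cells all exceeded the negative maximum, the lowest at 11.8. The difference was 7.80 (SE 1.67; limma adjusted p = 0.9996), with 8.60, 5.50 and 7.80 in mice 452, 1184 and 1185. Pbk was the 1 gene that edgeR called, with an adjusted p of 0.0156. It was high in the positive cell of mouse 452 (387) and in the cell of mouse 1185 at Mki67 33.7 (407), both of which held few of the 60 mitosis genes.

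Cdkn3, a phosphatase that acts on CDK1 and CDK2 (chr14:46760541-46771669), was above 0 in 11 positive cells, up to 279, and in none of the negative cells. Its difference was 3.84 (SE 1.33). H2afz, the histone variant H2A.Z, was present in every cell. Its positive values ran from 4234 through 10796.5 to 23398 normalised reads and its negative values from 1695 through 3038 to 8871, so that the sides overlapped, with a difference of 1.24 (SE 0.30). Among the other genes that the naming rule placed highest were Ect2, the exchange factor that starts the cytokinetic furrow (5.14, SE 1.64), and Birc5, survivin (5.09, SE 1.91). Kif2c, a microtubule-depolymerising kinesin, was above 0 in 7 positive cells and 1 negative cell. The histone chaperone Asf1b, the centromere gene Cenpu and the chromatin gene Hmgb3 had differences of 4.95, 3.32 and 4.96. Memo1, a mediator of cell motility, had 3.11, but 0.62 without the leukocyte-rich cells and 1.64 without the negative cell with the fewest genes detected.

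**Figure D4:**
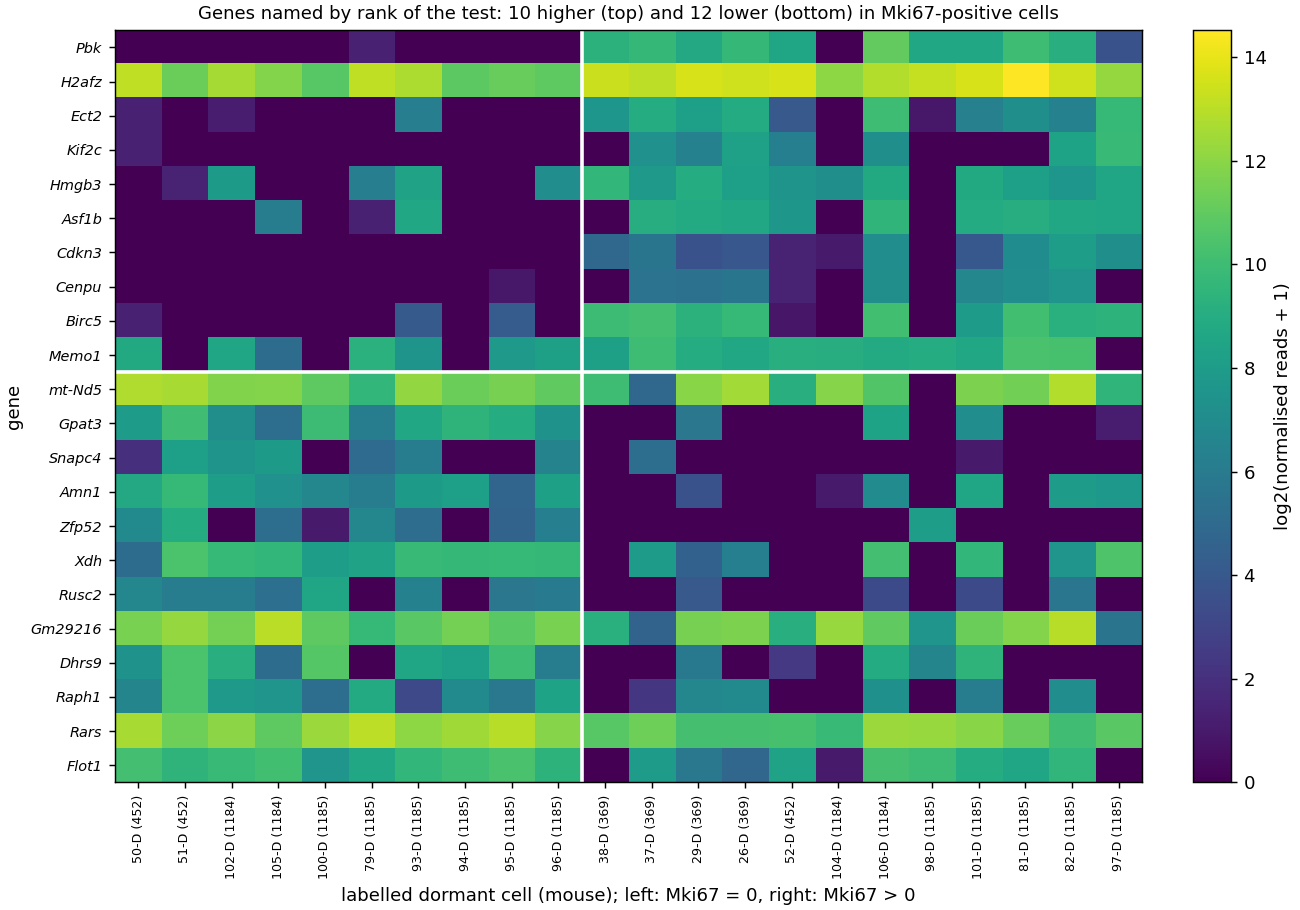
Log2(normalised reads + 1) of 10 genes higher (top) and 12 lower (bottom) in positive cells of each of the 3 mice, from those with the smallest p, by cell, with the cell's title and mouse below. Pbk and Cdkn3 fill the right side and are almost empty on the left, while Gpat3 is above 0 in all 10 negative and 4 of 12 positive cells.

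G1/S and DNA replication genes differed less sharply between cells. Of 59 tested, 57 had higher positive means, with a median difference of 2.30, 11 were higher at an unadjusted p under 0.05 and none passed the test. Pcna, the replication clamp, had a median of 1645 normalised reads in positive and 585 in negative cells, with a difference of 2.13 (SE 1.04), which was 0.60 without the negative cell with the fewest genes detected, 0.43 without mouse 452 and 0.46 without the leukocyte-rich cells. Gmnn, which encodes the replication licensing inhibitor geminin, was above 0 in all 12 positive and 6 negative cells (4.10, SE 1.67), and Gins2, a subunit of the replicative helicase, in 11 and 3 (4.34, SE 1.76). Without mouse 452 the difference of Gmnn was 2.54. Mcm2, another helicase subunit, was above 0 in 12 and 7 cells (2.40, SE 1.30). Its difference was 1.05 without that negative cell and 0.74 without the leukocyte-rich cells. A single Mki67-negative cell of mouse 1185 held 56 of the 60 list genes at 10 reads or more and also the most mitosis genes of any negative cell, 38. Without the negative cell that had the fewest genes detected the median of the list was 1.58, with 49 of 59 higher.

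Tubulin and high mobility group genes, which serve the spindle and chromatin, had 18 of 23 higher positive means and a median difference of 1.24, which was 0.38 without the negative cell with the fewest genes detected and 0.51 without the leukocyte-rich cells. Tubg1, the gamma-tubulin of the centrosome, was above 0 in 12 positive and 7 negative cells (3.31, SE 1.28), and Hmgb1, present in all cells, differed by 1.22 (SE 0.49). Stmn1, which encodes the microtubule destabiliser stathmin, differed by −0.52 (SE 1.09), and by 0.46 without mouse 1184.

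The next list, named for CDK inhibitors and growth arrest, had no common direction. Of 25 CDK inhibitor and growth-arrest genes tested, 14 had higher and 11 lower positive means, with a median of 0.10. None had an unadjusted p under 0.05 in limma. Single members differed in both directions: Lin9 by 3.49 and Dyrk1b by −1.65, neither changing sign in any setting where it was tested. The positive mean of Lin9 was highest in mouse 452, where it came from 1 cell (8.58). Cdkn1a, encoding the CDK inhibitor p21, was above 0 in all 22 cells, from 43.1 through 450 to 1784 normalised reads in positive and from 1.59 through 378 to 752 in negative cells (difference 1.03, SE 1.16). Without the negative cell with the fewest genes detected the difference was −0.16. Cdkn1b, encoding p27, was low, above 0 in 5 positive and 4 negative cells and at most 50.3 (−0.58, SE 1.04). Rb1 and Rbl2, pocket proteins that repress cell cycle genes, differed by 1.26 (SE 1.83) and 0.69 (SE 1.46). Among 19 p53 targets 12 were higher, with a median of 0.41.

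Of 21 published dormancy genes of disseminated tumour cells, 18 had lower positive means, where 53.1% of all genes did, with a median of −0.58. One, Thbs1, encoding the matrix protein thrombospondin-1, was lower at an unadjusted p under 0.05, and none passed the test. Thbs1 was above 0 in 5 positive cells, up to 1107 normalised reads, and in 7 negative cells, up to 5684 (−4.11, SE 1.83, and −1.59 without mouse 1184). Negative cells of each of the 3 mice had it, but 4 of the 10 were under 10. Tgfbr2, a TGF-beta receptor, differed by −2.54 (SE 1.73), and the receptor tyrosine kinase gene Axl by −0.09 (SE 0.99). The median of the list was −0.12 when cells needed 10 normalised Mki67 reads to count as positive, which moves the cell with 1 read.

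Gpat3 was present in every negative cell and at 0 in most positive ones. It encodes a glycerol-3-phosphate acyltransferase of triacylglycerol synthesis (chr5:100845713-100899102, ENSMUSG00000029314). All 10 negative cells held it, from 36.4 through 333 to 1073 normalised reads. Of the 12 positive cells 8 had none, and the others had 1.18, 53.1, 135 and 337. The difference was −6.07 (SE 1.72; limma adjusted p = 0.9996), with −9.05, −2.0 and −6.79 in mice 452, 1184 and 1185. Xdh, the purine-degrading xanthine dehydrogenase, was also above 0 in all negative and 7 positive cells (−5.06, SE 1.67), but its highest value, 1470, was in a positive cell. Without the leukocyte-rich cells the differences were −5.16 for Gpat3 and −2.67 for Xdh. Rars, the arginyl-tRNA synthetase (−1.15, SE 0.39), and Flot1, a membrane raft protein (−3.17, SE 1.10), were also among the lower genes named. The naming rule required these genes to be lower in each of 3 mice, as 14.1% of all genes were. With all dormant cells, labelled or not, Rars differed by 2.41. Snapc4, Amn1, Zfp52, Rusc2, Dhrs9 and Raph1 completed the set, with differences from −5.52 to −4.43.

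The remaining lower genes were mt-Nd5, a mitochondrially encoded subunit of complex I (−2.04, SE 0.56), and Gm29216, a nuclear copy of mitochondrial sequence (−1.72, SE 0.57) whose reads cannot be assigned with certainty. This led to a look at all mitochondrially encoded protein genes, a list chosen after the values were seen. All 12 tested had lower positive means, 8 of them in each of the 3 mice, where 14.1% of all genes were. Their summed share of normalised reads ran from 1.00% to 9.24% in the negative cells. In the positive cells it ran from 0.0465% to 6.30%, with 5 cells below the negative minimum and 7 inside the negative range. The low positive cells were 2 of mouse 369, 2 of mouse 1185 and the 1 of mouse 452. The median difference of the list, −1.93, was −1.02 without mouse 452 and −0.69 when positive cells needed 10 normalised Mki67 reads. With all dormant cells, labelled or not, the mt-Nd5 difference reversed to 0.74.

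Stress genes of the endoplasmic reticulum and the integrated stress response had 16 of 21 lower positive means, with a median of −0.53. Sqstm1, encoding the autophagy receptor p62, differed by −1.03 (SE 0.36), Asns, the asparagine synthetase, by −1.29 (SE 0.50), and Ern1, the IRE1 sensor of unfolded protein, by −4.33 (SE 1.74), which was −2.51 without mouse 452. Sqstm1 and Asns were lower in 2 of 3 mice and Ern1 in all 3. With all 28 dormant cells, labelled or not, the median of the list was 0.20. Of 25 keratin and mesenchymal genes 17 were lower, with a median of −0.20. Fn1, fibronectin, had a median of 583 normalised reads in positive and 3217 in negative cells (−3.19, SE 1.33), and of the 6 positive cells under 100, 4 were from mouse 369, which gave no negative cell. Without mouse 369 the Fn1 difference was −1.95, and with all dormant cells it was 1.06. Krt8 and Vim, which mark the epithelial and mesenchymal character of the line, differed by −0.33 (SE 0.39) and −0.20 (SE 0.34).

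The other lists described had medians from −0.25 to 0.46, against −0.09 over all genes, and none of their genes passed the test. Their shares of higher genes departed from the 46.9% of all genes in both directions. The share was 74.7% for ribosomal protein, 71.1% for respiratory chain and 68.8% for interferon genes, but 31.3% for MHC class I and 33.3% for pan-leukocyte genes. Ribosomal protein genes had a median of 0.18 (59 of 79 higher), nuclear-encoded respiratory chain genes 0.18 (27 of 38), glycolysis and hypoxia genes 0.24 (14 of 21), and MYC and ribosome biogenesis genes 0.42 (19 of 30). Of these 30 genes, however, 0 were higher in each of the 3 mice with both sides and 4 were lower. The shares over all genes were 6.34% and 14.1%. Type I interferon response genes had 22 of 32 higher and a median of 0.46, but −0.07 without mouse 369. Ifitm3, an interferon-induced membrane protein, differed by 1.09 (SE 0.42). MHC class I genes had a median of −0.25, immediate early genes −0.15, pan-leukocyte genes −0.02, monocyte and macrophage genes −0.06 and neutrophil genes 0.29. No B, T, natural killer, erythroid or megakaryocyte gene of the lists was above 0 in enough cells to be tested.

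**Figure D5:**
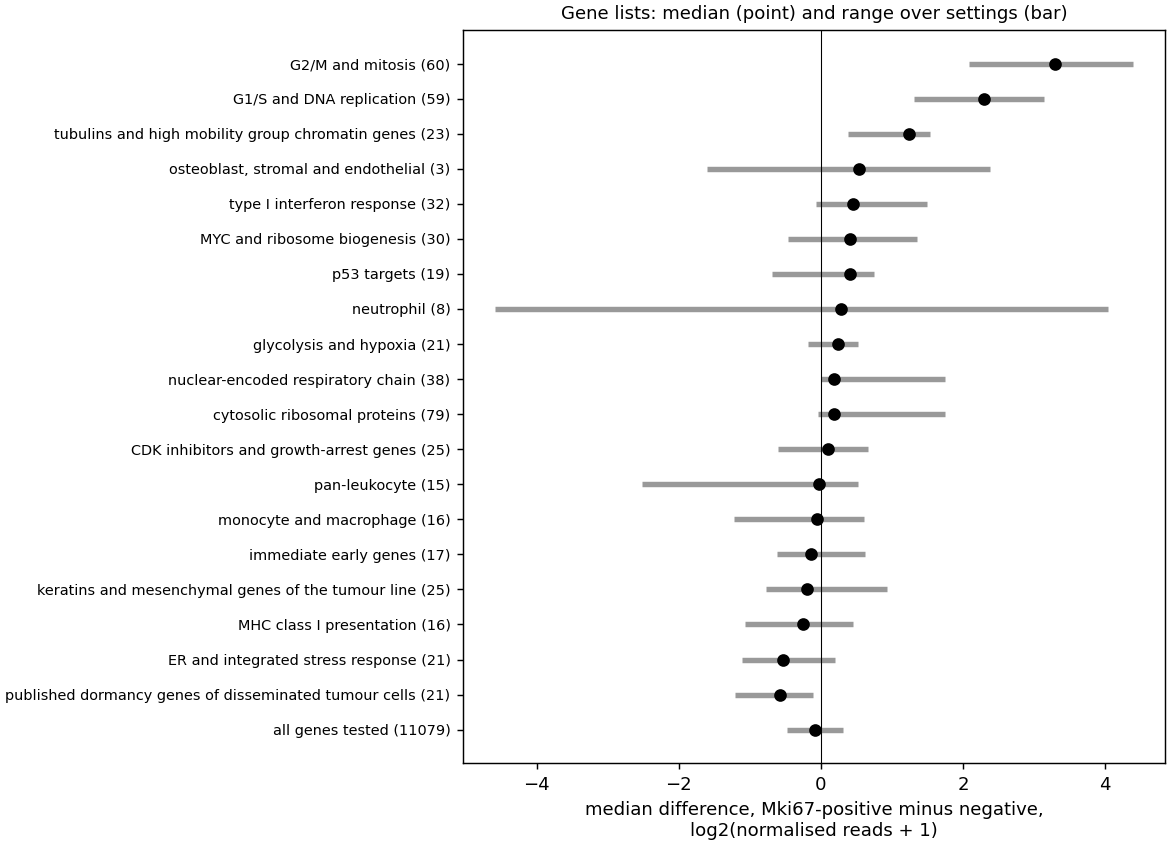
Median difference between Mki67-positive and Mki67-negative labelled dormant cells for each gene list (points, number of genes tested in brackets) and its range over the alternative settings (bars), in log2(normalised reads + 1). The G2/M and G1/S medians, 3.30 and 2.30, stay above 0 in every setting, and most other bars cross 0.

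Across the 22 cells genes among the 10 most like Mki67 by Spearman's rho, out of 9407 compared, were Cdkn3 (0.874), Cep128 (0.854), Cdca8 (0.816), Plk1 (0.799), Ccnb1-ps (0.797), Ect2 (0.785), Mis18a (0.784), Pbk (0.780) and Depdc1a (0.777). Mis18a serves the loading of the centromeric histone CENP-A, and Cdca8 encodes borealin of the chromosomal passenger complex. Ccnb1-ps is a pseudogene whose reads may belong to Ccnb1. Cells share mice and library preparation, and the 10 cells at 0 are tied, so these are descriptions without a test. Cdkn3, Cep128, Plk1 and Depdc1a were at 0 in all 10 Mki67-negative cells. The ranking used the Mki67 values that made the sides and favours such genes, so this is no separate support.

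Labelled proliferating cells gave the same division for comparison, with 22 Mki67-positive and 7 negative cells. The median G2/M difference was 3.91 in them and 3.30 in the labelled dormant cells. The test of the difference between the 2 contrasts called 0.0% of 12074 genes (limma, smallest adjusted p 0.135), with 10 genes higher in the dormant contrast (0.0828%) and 1231 lower (10.2%) at an unadjusted p under 0.05. The median difference of contrasts over all genes was −1.50, with 79.8% below 0, and in the G2/M list it was −0.88, with 45 of 60 below 0. Beside it stands that the proliferating Mki67-negative cells had fewer genes detected, a median of 6020 against 8231.5 in the positive ones, a gap that the dormant cells did not show. Its part in the result was not tested. For Gpat3 the dormant minus the proliferating contrast was −9.23 (limma adjusted p = 0.437).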

How the data were processed

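Per the labels' protocols, each sample is 1 cell, made into a library with SMARTer cDNA, ERCC spike-ins and Nextera XT. STAR, RSEM, GRCm38 and mm10 are named, without versions, in the submitters' processing notes. The values the authors deposited are a signal, reads per gene and cell normalised with BASiCS per the series text. In each cell 100% of gene values were whole multiples of 1 step, within 0.01 reads, so whole reads could be recovered. The depth was 1310736 to 5306777 recovered reads per labelled cell. The table of all cells was used, and the table of 4 mice as an alternative.

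The mouse was the replicate. For each mouse and Mki67 side the log2(value + 1) of its cells was averaged and tested with limma 3.58.1 (trend and robust), without a block, for 11079 genes above 0 in at least 4 of 22 cells. Mki67 and spike-ins were left out, and p-values were adjusted by Benjamini-Hochberg at 0.05. This scale understates changes of low genes. Pairing comes from the labels, as both sides came from the same mouse. The correlations of paired deviations were 0.134, 0.102 and 0.0398 in mice 452, 1184 and 1185. No 2 labelled dormant cells correlated above 0.780. Nothing in the labels says whether cells of a mouse came from separate lesions.

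The alternatives were edgeR 4.0.16 and DESeq2 1.42.0 on the recovered reads, and other pseudocounts, filters, scalings and cells. Leaving out the cell with the fewest genes detected was added after the values were seen. The named genes were the 12 higher and 12 lower with the smallest p and the same sign in each mouse with both sides, above 0 in at least 8 cells, up to 4 members of each list, and a fixed set. Where none passed they are given as values. A few genes that the rules name are not reported here. Bub3, Pttg1 and the mitochondrial list were singled out after their values were seen. The members, the 22 lists and the tests were chosen with earlier results of these data known. Gene positions come from GENCODE on GRCm38 and promoters from RefSeq on GRCm38.p6. The scripts were tested on simulated data. Python 3.11.15, pandas 2.3.3, scipy 1.17.1, matplotlib 3.10.9 and R 4.3.3 were used. Which dormant cell belonged to which library batch is not given in the sources used here, so no within-batch value could be computed.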

Additional observations from a re-analysis of the deposited data

Results flagged for a closer look

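Groups of 4 to 10 values were searched for a value far from the others, 138 groups in all, and 21 stood apart. The search is set to flag about 1 in 20 groups of normally distributed values. Many groups here hold cells at 0 and most reuse the same 4 mice, so the count cannot be set against that rate. Zfp52, for example, was above 0 in only 1 positive cell, which alone makes its mouse stand apart. Among the 10 Mki67-negative cells, 1 cell of mouse 452 had 2984 genes detected, far below the others. A negative cell of mouse 1184 had all 18 pan-leukocyte genes above 0. The other cases are means of log2(normalised reads + 1) over the Mki67-positive cells of 1 mouse, set against the other 3 mice. Mouse 369 was high for Snapc4 (1.31), Ccne1 (4.67) and Tgfb2 (0.70). It was also high for the immune genes Ptprc (4.42), Cd48 (1.51), C1qa (2.53), Camp (0.40), Ngp (0.58) and Mmp8 (2.92). Mouse 452, whose mean is 1 cell, was high for Lin9 (8.58) and eCFP (11.15) and was at 0 for Xdh and Cenpf. Mouse 1184 was low for Gins2 (3.11), Mcm7 (4.69) and Stmn1 (5.33). Mouse 1185 was low for Memo1 (7.66) and high for Zfp52 (1.62) and Dyrk1b (1.33).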

How the results depend on the processing

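limma called 0 genes in the leading fit. It also called 0 under other pseudocounts, filters, scalings, weights and cells, except in the settings without mouse 1184 given below. With the replicate block it also called 0 (smallest adjusted p 0.871), and before adjustment 102 genes were higher and 292 lower with p under 0.05. The block changed no other call. edgeR called 1 gene with either scaling (TMM or RLE) and DESeq2 62. The table of the 4 mice, which leaves out mouse 1184, gave 5 calls in limma, H2afz higher and mt-Atp6, mt-Co3, mt-Co2 and Sqstm1 lower. Leaving out 1 mouse at a time gave 0 to 5 calls, the 5 without mouse 1184, and here the lone positive cell of mouse 452 counts as 1 mean. The difference in genes detected, −374, ranged from −786 to −67.8 with 1 mouse left out and reversed to 472 with all dormant cells, labelled or not. The difference between the 2 contrasts gave 0 calls in each of its settings. Over up to 21 settings, 79 of 129 named genes never changed sign where tested, and 143 of 2592 values did. Some genes were not tested in every setting, Camp for example in only 12. The cause of these changes was not tested. With 3 mice holding both sides the exact test cannot pass, and a gene at 0 may lie under the depth of 1 cell.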
